A study of Mus musculus with 42 samples.

Results

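Iron handling in obstructed mouse kidneys was followed through 10 genes: Lcn2, Cp, Steap4, Slc40a1, Tfrc, Trf, Fth1, Ftl1, Hmox1 and Slc11a2. They were taken by symbol from the 40701 gene symbols of the count and RPKM tables (reads per kilobase of gene length, scaled to the library total), and all 10 were present and passed the filter on low counts in every fit. Libraries came from the renal cortex of mice aged 12 weeks whose ureter had been tied on one side. The proximal tubule fraction (PT) is RNA pulled down with anti-GFP beads, a method known as translating ribosome affinity purification, in which tagged ribosomes carry along the mRNA they are reading. The second fraction is called total kidney (Total), and the labels leave unsaid whether it is cortex RNA taken whole or what the beads did not bind.

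Each fraction held obstructed kidneys at day 5 and at day 10 and contralateral kidneys, the untouched kidneys of operated mice, in 4 male and 3 female libraries per state and 42 libraries in all. The day on which the contralateral kidneys were taken, the strain, the tagged transgene with its promoter, and whether libraries stand for separate mice are not given in the sources used here. P-values therefore measure the spread between these libraries, which may be technical, and both days share 1 set of contralateral libraries. Total counts ran from 9.31 to 43.6 M counts per library, with a median of 18.5 M counts.

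The PT label was checked against markers. In contralateral kidneys the summed level of 10 proximal tubule markers ran from 7449 to 9368 counts per M counts of a library (CPM) in PT libraries, against 3988 to 6026 CPM in Total libraries. The sum of 8 markers of the loop of Henle and distal tubule ran from 115 to 225 CPM in PT libraries, against 1798 to 5278 CPM in Total libraries. By medians, PT stood at 4.52% of Total for this list. The lists of other cells ran from 2.86% for neutrophil to 29.3% for macrophage markers, with collecting duct markers at 16.1%. The PT libraries fell apart by Lars2, a mitochondrial tRNA synthetase gene: 9 held 2543 to 5722 CPM and 12 held 8129 to 44148 CPM, and the low side held 2 contralateral, 4 day 5 and 3 day 10 libraries. What sets Lars2 apart was not tested, and PT differences between kidney states are also given for each side, split after the levels were seen, where a side ends a call.

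Iron circulates bound to transferrin, enters cells through the transferrin receptor, is stored in ferritin, and leaves through ferroportin, with ceruloplasmin oxidising it on the way out. Filtered iron and transferrin are taken back by the proximal tubule. Lipocalin 2 binds bacterial and mammalian iron carriers and is widely used as a marker of tubule injury. Iron regulatory proteins control several of these genes through a hairpin in the mRNA, the iron responsive element: in front of the coding sequence the bound hairpin holds back translation, and behind it the bound hairpins protect the mRNA from decay.

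The hairpins are shown because the members that carry them differ in where they lie. Searching the untranslated regions (UTRs) of the GENCODE M21 transcripts (build GRCm38) for a C, then 5 bases, the loop CAGTGN and 5 bases able to pair with the first arm gave 7 elements in 4 of the 10 members. Fth1 has one in its 5′ UTR at chr19:9982731-9982760 on the plus strand. Ftl1 has one in its 5′ UTR at chr7:45459779-45459808 on the minus strand, and Slc40a1 one at chr1:45925465-45925494 on the minus strand. Tfrc has 4 matches to this pattern in its 3′ UTR on the plus strand, starting with chr16:32631218-32631247 and ending with chr16:32631709-32631738. Elements of another shape were not sought. The same search matched 28 of 20544 genes with a 5′ UTR (0.136%) and 127 of 20920 genes with a 3′ UTR (0.607%). Capitals mark the loop.
Fth1: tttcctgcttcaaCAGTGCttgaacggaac
Ftl1: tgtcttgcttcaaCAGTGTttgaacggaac
Slc40a1: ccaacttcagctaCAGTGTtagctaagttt
Tfrc, most upstream: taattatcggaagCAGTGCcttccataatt
Tfrc, most downstream: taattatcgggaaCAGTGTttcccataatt

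The elements of Fth1 and Ftl1 stand in front of the coding sequence of both ferritin chains, and those of Tfrc stand behind it. In the other 6 members, among them Slc11a2, no match to this pattern lies in the annotated UTRs, which says only that these letters are not there.

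Promoters are shown for Lcn2, Cp and Steap4, the 3 members with the highest increases in obstructed PT. The 250 bases before a RefSeq start (GRCm38.p6) were searched on both strands for a kB motif (3 G, any 5 bases, 2 C), a C/EBP motif (TTGCNNAA), a STAT motif (TTCNNNGAA) and an AP-1 motif (TGANTCA). Among 32851 promoters of this length, 45.8% held the kB motif, 9.56% the C/EBP motif, 7.02% the STAT motif and 6.75% the AP-1 motif. The Lcn2 window is chr2:32387740-32387989 on the minus strand, the Cp window (before the downstream of its 2 listed starts) chr3:19956999-19957248 on the plus strand, and the Steap4 window chr5:7960222-7960471 on the plus strand. Capitals mark kB and C/EBP matches, of which each window holds both.
Lcn2: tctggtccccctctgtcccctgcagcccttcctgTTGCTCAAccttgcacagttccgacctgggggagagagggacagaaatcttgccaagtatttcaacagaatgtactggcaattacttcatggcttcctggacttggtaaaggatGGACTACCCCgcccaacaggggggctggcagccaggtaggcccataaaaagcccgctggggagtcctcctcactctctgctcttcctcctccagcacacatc
Cp: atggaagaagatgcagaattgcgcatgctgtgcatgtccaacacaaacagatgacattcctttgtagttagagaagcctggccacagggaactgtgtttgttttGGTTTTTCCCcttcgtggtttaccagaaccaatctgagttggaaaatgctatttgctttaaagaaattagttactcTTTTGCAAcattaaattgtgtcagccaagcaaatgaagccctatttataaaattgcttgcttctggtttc
Steap4: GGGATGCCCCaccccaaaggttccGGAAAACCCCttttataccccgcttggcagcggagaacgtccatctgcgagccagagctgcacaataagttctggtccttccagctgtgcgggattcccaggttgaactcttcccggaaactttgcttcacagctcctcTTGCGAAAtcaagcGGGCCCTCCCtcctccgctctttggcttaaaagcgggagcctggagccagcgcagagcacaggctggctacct

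The Steap4 window holds 3 kB matches and a STAT match as well, and the window before the upstream Cp start holds only an AP-1 match. Windows were at hand for 6 of the 10 members, and matches were not particular to the members that rose. Fth1, called lower in PT at day 5, held both kB and C/EBP matches in the window chr19:9982396-9982645 on the plus strand. Tfrc and Ftl1, also called lower there, held kB matches. A match is a stretch of letters and no measure of binding.

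Lcn2, Cp and Steap4 were the members that differed most from contralateral kidneys in PT. The list was chosen by a reading of earlier results of these libraries that named these 3 genes, so for them levels and fold changes between states and fractions are a description with no test. In bulk libraries a change in the share of a cell type and a change in RNA per cell cannot be told apart. In PT, which holds ribosome-bound mRNA, a change in ribosome loading cannot be told apart from them either. Throughout, CPM are scaled with TMM factors (trimmed mean of M values, a correction for library makeup), fold changes are log2 values ± standard error with 7 libraries a state, and a gene counts as called where edgeR's quasi-likelihood test gave an adjusted p under 0.05 (Benjamini-Hochberg) and the difference was at least 2-fold.

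Lcn2 encodes lipocalin 2. In PT its lowest, median and highest levels were 0.445, 0.630 and 1.01 CPM in contralateral kidneys, 9.39, 11.2 and 21.7 CPM at day 5, and 18.8, 30.9 and 94.6 CPM at day 10. In Total they were 0.652, 1.203 and 1.86 CPM in contralateral kidneys, 85.8, 164 and 366 CPM at day 5, and 169, 234 and 492 CPM at day 10. Obstructed and contralateral libraries did not overlap in either fraction, while day 10 and day 5 did. The differences from contralateral kidneys were 4.23 ± 0.39 at day 5 and 6.04 ± 0.41 at day 10 in PT, and 7.08 ± 0.32 at day 5 and 7.72 ± 0.33 at day 10 in Total. Day 10 against day 5 gave 1.81 ± 0.32 in PT, with values of 1.51 to 1.97 when each library was left out in turn and no call without the first female PT library of day 5, and 0.64 ± 0.23 in Total.

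Cp encodes ceruloplasmin, the ferroxidase that carries copper. Its PT levels were 3.17, 4.52 and 10.9 CPM (lowest, median, highest) in contralateral kidneys, 373, 468 and 541 CPM at day 5 and 233, 329 and 726 CPM at day 10. In Total they were 12.9, 18.3 and 33.0 CPM in contralateral kidneys, 205, 353 and 463 CPM at day 5 and 236, 282 and 572 CPM at day 10. Here too obstructed and contralateral libraries stood apart in both fractions, and the days overlapped. In PT the log2 differences from contralateral kidneys were 6.36 ± 0.29 at day 5 and 6.26 ± 0.29 at day 10, and in Total they were 3.94 ± 0.22 and 4.10 ± 0.23 on the same days. Cp overlaps Hps3 on the opposite strand and the strand setting of the counting is not given, so reads of the 2 genes may be mixed. The same may hold for other members. Trf overlaps Gm20425 and Ftl1 overlaps Gm22133 on the same strand. On the opposite strand Ftl1 overlaps Gm10252 and Slc11a2 overlaps Gm5475.

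Steap4 encodes a metalloreductase that reduces ferric and cupric ions. The 7 contralateral PT libraries held a single Steap4 count among them, in 1 female library, against 471 counts over the 7 PT libraries of day 5 and 550 over those of day 10. Its PT levels were 1.22, 3.78 and 10.4 CPM (lowest, median, highest) at day 5 and 0.673, 3.74 and 6.30 CPM at day 10. The ratio of these sums, each per TMM-scaled library size, was 423 at day 5 (95% counting interval 75.6 to 16757) and 413 at day 10 (73.9 to 16351). These intervals cover counting error only. In Total, levels were 0.234, 0.713 and 0.941 CPM in contralateral kidneys, 2.02, 3.36 and 5.86 CPM at day 5 and 1.69, 3.27 and 6.37 CPM at day 10, with log2 differences of 2.33 ± 0.31 at day 5 and 2.32 ± 0.31 at day 10.

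**Figure D1:**
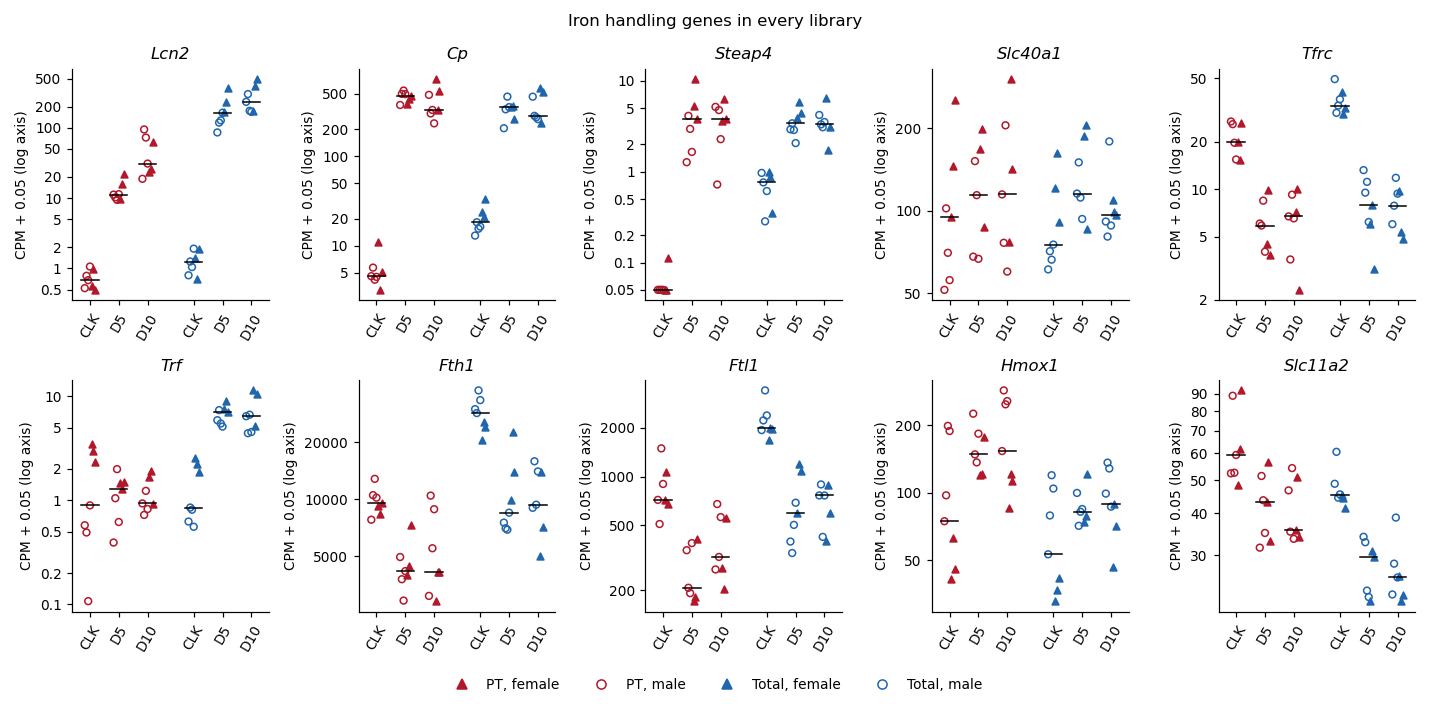
Level of each of the 10 genes in every library, as TMM-scaled CPM + 0.05 on a log axis, by fraction and kidney state (CLK, contralateral; D5, day 5; D10, day 10; triangles, female libraries; open circles, male libraries; black line, median of 7). Lcn2, Cp and Steap4 stand higher in all obstructed PT libraries than in contralateral ones, Tfrc stands lower, and Slc40a1 overlaps between states.

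Over the whole list, 3 members were called higher and 3 lower at day 5 against contralateral kidneys in PT, where 30.6% of the 14932 genes tested were called, 18.2% higher and 12.4% lower. At day 10 the PT counts were 3 higher and 2 lower, beside 31.7% of all genes, 19.7% higher and 12% lower. In Total, 4 members were higher and 3 lower at day 5, beside 32.5% of 16782 genes, 19.2% higher and 13.3% lower. At day 10 in Total, 4 were higher and 3 lower, beside 34.6% of all genes, 20.9% higher and 13.8% lower. Obstructed and contralateral libraries did not overlap for 6 members in PT at day 5 (25.4% of all genes) and 4 at day 10 (22.1%), and for 7 in Total at day 5 (28.5%) and 8 at day 10 (29.3%). The higher members were Lcn2, Cp and Steap4 in both fractions, whose contrasts chose the list, and Trf in Total, so the counts are a description. The median log2 difference over the 10 members was 0.07 at day 5 and 0.15 at day 10 in PT, beside 0.05 over all genes tested on both days. In Total it was 0.49 at day 5 and 0.30 at day 10, beside 0.04 and 0.06 over all genes.

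Between the days, 1 of the 10 members (Lcn2, by description) was called higher at day 10 than at day 5 in PT, where 0.442% of all genes were called either way and 0.422% higher. None was called in Total (0.393% of all genes called). There, 1 of the 10 had an unadjusted p under 0.05 in edgeR's test, Lcn2 again, and DESeq2 and limma-voom called none. In PT libraries of low Lars2 alone the Lcn2 difference between the days was 1.62 and in those of high Lars2 alone 1.72, neither passing the adjusted threshold, with 1 female library of day 10 on the low side and 1 of day 5 on the high side.

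The receptor for transferrin was lower in obstructed kidneys. Tfrc encodes it. In PT its lowest, median and highest levels were 15.2, 19.7 and 26.7 CPM in contralateral kidneys, 3.78, 5.85 and 9.81 CPM at day 5 and 2.26, 6.68 and 9.91 CPM at day 10, with no overlap between obstructed and contralateral libraries. Tfrc fell by 1.82 ± 0.30 on the log2 scale at day 5 (edgeR adjusted p = 3.05e-05) and by 1.73 ± 0.30 at day 10 (adjusted p = 4.65e-05). In Total its levels were 29.9, 33.7 and 49.5 CPM in contralateral kidneys, 3.06, 7.94 and 13.1 CPM at day 5 and 4.77, 7.82 and 11.8 CPM at day 10. It fell there by 2.35 ± 0.23 on both days (edgeR adjusted p = 7.80e-09 at day 5 and 6.54e-09 at day 10). On log2(RPKM + 1), a scale that understates the change of low genes, the PT differences were −0.82 at day 5 and −0.80 at day 10, short of 2-fold.

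Trf encodes transferrin itself, the carrier that the liver secretes. Its PT levels were low and overlapped: 0.0573, 0.844 and 3.46 CPM in contralateral kidneys, 0.343, 1.23 and 1.94 CPM at day 5 and 0.673, 0.883 and 1.85 CPM at day 10. The PT difference was −0.04 ± 0.43 at day 5, with a 95% interval of −0.92 to 0.85, and −0.07 ± 0.40 at day 10, with an interval of −0.91 to 0.78. These values average over the sexes. Every female contralateral PT library lay above every male one, as given below with the comparison of the sexes. A mean near 0 therefore does not show that Trf stayed the same within either sex. In Total, levels were 0.507, 0.802 and 2.48 CPM in contralateral kidneys, 5.06, 6.93 and 8.95 CPM at day 5 and 4.36, 6.38 and 11.3 CPM at day 10, with no overlap between obstructed and contralateral libraries. Trf rose in Total by 2.39 ± 0.21 at day 5 (edgeR adjusted p = 1.64e-09) and by 2.43 ± 0.21 at day 10 (adjusted p = 9.73e-10).

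Ferritin mRNA was lower. Fth1 encodes the heavy chain, which oxidises the iron it stores. In PT its levels were 7813, 9519.8 and 12828 CPM (lowest, median, highest) in contralateral kidneys, 2927.5, 4187 and 7369.8 CPM at day 5 and 2907, 4156 and 10466 CPM at day 10. All day 5 libraries lay below the contralateral ones, and at day 10 the groups overlapped. Fth1 fell in PT at day 5 by 1.10 ± 0.23 (edgeR adjusted p = 0.000494). At day 10 its difference was −0.94 ± 0.23 (edgeR adjusted p = 0.00177), short of 2-fold.

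In Total, Fth1 had 20589, 28513 and 37539 CPM in contralateral kidneys, 6921, 8509.5 and 22637 CPM at day 5 and 5027, 9374 and 15884 CPM at day 10. It fell by 1.46 ± 0.23 at day 5 (edgeR adjusted p = 8.29e-06) and by 1.54 ± 0.23 at day 10 (adjusted p = 3.74e-06). In 1 of the day 5 Total libraries Fth1 stayed within the contralateral range.

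Ftl1 encodes the light chain of ferritin. Its PT levels were 510.4, 719 and 1491 CPM in contralateral kidneys, 171, 207 and 411 CPM at day 5 and 204, 320.1 and 677 CPM at day 10. In Total they were 1677, 1997 and 3389 CPM in contralateral kidneys, 338, 596 and 1194 CPM at day 5 and 399, 765 and 894 CPM at day 10. Only the PT libraries of day 10 overlapped with their contralateral ones. Ftl1 fell in PT by 1.70 ± 0.31 at day 5 (edgeR adjusted p = 0.000109) and by 1.14 ± 0.31 at day 10 (adjusted p = 0.00337), and in Total by 1.78 ± 0.21 at day 5 (adjusted p = 1.98e-07) and 1.81 ± 0.21 at day 10 (adjusted p = 1.27e-07).

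The ferritin calls in PT depend on settings. With library size alone as scaling, which moved the median of all genes in PT to 0.52 at day 5 and 0.49 at day 10, the Fth1 difference at day 5 was −0.65 and the Ftl1 difference at day 10 was −0.71, both short of 2-fold. On log2(RPKM + 1) the same differences were −0.66 and −0.75. In PT libraries of high Lars2 alone these were −0.72 and −0.95, and in those of low Lars2 alone −1.46 and −1.32. Without the third male contralateral PT library, Ftl1 at day 10 gave −0.97. GENCODE M21 names 11 copies of Fth1 (10 of them rows of the table) and 3 of Ftl1 (1 a row), so the assignment of ferritin reads is uncertain.

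Export, heme breakdown and divalent metal transport moved less. Slc40a1 encodes ferroportin, the iron exporter. Its PT levels were 51.4, 95.1 and 254 CPM in contralateral kidneys, 66.8, 114 and 199 CPM at day 5 and 59.97, 115 and 302 CPM at day 10, all overlapping. The PT differences were 0.18 ± 0.34 at day 5 (95% interval −0.53 to 0.88) and 0.37 ± 0.34 at day 10 (−0.34 to 1.08). In Total they were 0.47 ± 0.20 at day 5 (0.05 to 0.89, edgeR adjusted p = 0.0519) and 0.09 ± 0.20 at day 10 (−0.32 to 0.51). These intervals do not show that ferroportin mRNA stayed the same.

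Hmox1 encodes heme oxygenase 1, which frees iron from heme. In PT it had 41.3, 74.5 and 198 CPM in contralateral kidneys, 119, 148 and 225 CPM at day 5 and 85.5, 153 and 286 CPM at day 10. The PT differences of 0.88 ± 0.21 at day 5 (edgeR adjusted p = 0.00159) and 0.91 ± 0.21 at day 10 (adjusted p = 0.00119) were short of 2-fold. Total gave 0.51 ± 0.18 at day 5 (edgeR adjusted p = 0.0213) and 0.50 ± 0.18 at day 10 (adjusted p = 0.0216). With library size alone the PT values were 1.36 at day 5 and 1.37 at day 10, past 2-fold.

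Slc11a2 encodes the divalent metal transporter DMT1. In PT it had 48.3, 59.3 and 92.1 CPM in contralateral kidneys, 31.6, 43.0 and 56.6 CPM at day 5 and 33.5, 35.6 and 54.3 CPM at day 10. The differences of −0.65 ± 0.19 at day 5 (edgeR adjusted p = 0.00634) and −0.68 ± 0.19 at day 10 (adjusted p = 0.00417) were short of 2-fold, as were those in Total of −0.84 ± 0.15 at day 5 (adjusted p = 3.95e-05) and −0.94 ± 0.15 at day 10 (adjusted p = 9.51e-06). On the deposited RPKM, which carry no TMM factor, the PT median was 7.20 at day 5 and 6.31 in contralateral kidneys, the other way round.

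**Figure D2:**
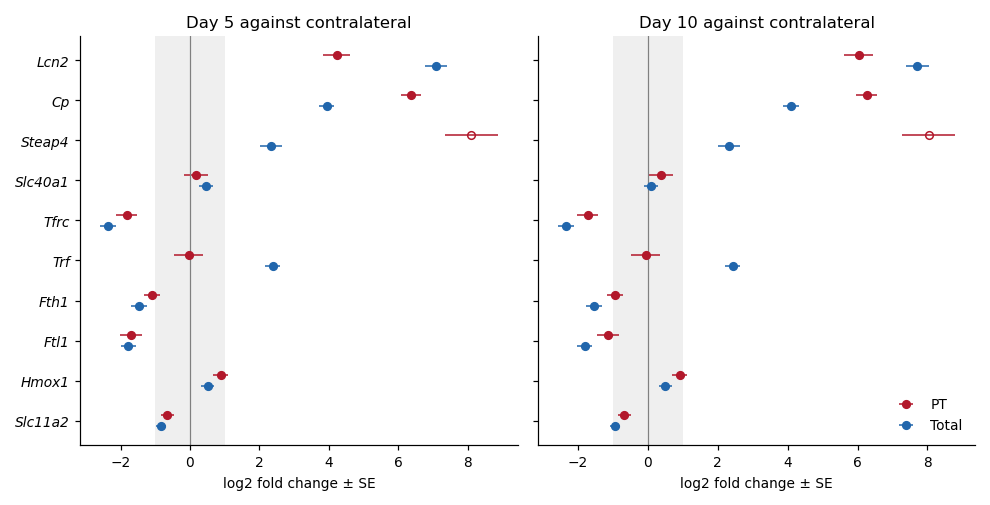
Log2 differences from contralateral kidneys ± standard error for the 10 genes, at day 5 and day 10, in PT and in Total. The open symbol is Steap4 in PT, whose fitted value depends on the prior count; the grey band marks less than 2-fold. Tfrc and Ftl1 lie below the band in both fractions on both days, and Trf lies above it in Total alone.

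Per length, the order of the members differed between states. In contralateral PT the median RPKM was 8158 for Fth1, 411 for Ftl1, 25.4 for Hmox1, 8.10 for Slc40a1, 6.31 for Slc11a2, 2.44 for Tfrc, 0.348 for Cp, 0.172 for Trf, 0.170 for Lcn2 and 0 for Steap4. In that order Hmox1 and Slc40a1, Slc40a1 and Slc11a2, Cp and Trf, and Trf and Lcn2 overlapped between libraries. At day 5 the order in PT was Fth1 with 5074 RPKM, Ftl1 with 161, Hmox1 with 70.0, Cp with 47.8, Slc40a1 with 13.3, Slc11a2 with 7.20, Lcn2 with 4.64, Steap4 with 1.03, Tfrc with 0.941 and Trf with 0.377. Cp thus stood below Tfrc in contralateral PT and between Hmox1 and Slc40a1 at day 5, where its highest library (59.4 RPKM) passed the lowest of Hmox1 (58.5 RPKM).

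PT was then set against Total within each state. In contralateral kidneys 4 members were called, each lower in PT, beside 24.1% of the 17110 genes tested, 22.9% lower. At day 5, 4 were called, each lower, beside 27.8% of all genes, 23.8% lower. At day 10, 3 were called, each lower, beside 30.1% of all genes, 23% lower. At day 5 they were Lcn2, Trf, Fth1 and Ftl1.

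Lcn2 was 3.84 ± 0.32 log2 units lower in PT than in Total at day 5 and 2.61 ± 0.30 lower at day 10. In contralateral kidneys its difference was −0.97 ± 0.41. The PT median was 52.4% of the Total median in contralateral kidneys, 6.81% at day 5 and 13.2% at day 10. Marker lists of other cells had shares of their own. The summed loop and distal tubule markers in PT stood at 4.52% of Total in contralateral kidneys, 6.68% at day 5 and 9.22% at day 10. The summed macrophage markers stood at 29.3%, 14.7% and 13.1% in the same states.

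Neutrophils carry much Lcn2, and the sum of 12 neutrophil markers was 0.685 to 1.84 CPM in PT at day 5 and 0.715 to 2.58 CPM at day 10, against 0 to 0.458 CPM in contralateral PT, where 6 of the 12 markers, Ly6g and Mpo among them, were at 0. In Total it was 13.3 to 24.9 CPM at day 5 and 15.4 to 32.5 CPM at day 10, against 0.949 to 6.86 CPM in contralateral kidneys. The 8 loop and distal markers together held 47.4 to 69.9 CPM in PT at day 5 and 49.1 to 149 CPM at day 10, against 115 to 225 CPM in contralateral PT. In Total they held 826 to 1084 CPM at day 5 and 599 to 1032 CPM at day 10, against 1798 to 5278 CPM in contralateral kidneys. These markers did not all fall. In PT at day 5 Trpm6 rose by 1.96 ± 0.31 and Umod differed by 0.07 ± 0.22, while the others had values below 0. The Umod median in Total was 565 CPM in contralateral kidneys, 593 CPM at day 5 and 642 CPM at day 10. The part of other cells in the Lcn2 values was not tested.

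Trf showed a like split. It was lower in PT than in Total by 2.62 ± 0.30 at day 5 (edgeR adjusted p = 2.07e-09) and by 2.62 ± 0.30 at day 10 (adjusted p = 1.70e-09), while in contralateral kidneys the difference was −0.17 ± 0.31 (adjusted p = 0.695). The PT median was 105% of the Total median in contralateral kidneys, 17.7% at day 5 and 13.8% at day 10. Markers of macrophages, fibroblasts and lymphocytes moved in the same samples. The sum of 12 macrophage markers held 573 to 1313 CPM in Total at day 5 and 1106 to 2328 CPM at day 10, against 77.5 to 155 CPM in contralateral Total. The sum of 8 fibroblast markers held 705 to 954 CPM at day 5 and 721 to 2199.7 CPM at day 10, against 54.3 to 136 CPM. The sum of 9 lymphocyte markers held 23.5 to 57.9 CPM at day 5 and 22.8 to 64.3 CPM at day 10, against 2.23 to 6.70 CPM. In PT the fibroblast sum stood at 7.26% of Total in contralateral kidneys, 4.53% at day 5 and 6.02% at day 10, and the lymphocyte sum at 6.15%, 16.9% and 17.2%. Their part in the Trf values was not tested.

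Cp and Steap4 ran the other way. Cp was 2.01 ± 0.24 lower in PT than in Total in contralateral kidneys, with differences of 0.38 ± 0.22 at day 5 (95% interval −0.06 to 0.83) and 0.18 ± 0.22 at day 10 (−0.26 to 0.62). For Steap4 the contralateral ratio was 74.3-fold lower in PT (95% counting interval 12.98 to 2972, 1 count against 82), and the fitted differences were 0.09 ± 0.35 at day 5 and 0.10 ± 0.35 at day 10. PT medians reached 132% of Total for Cp and 112% for Steap4 at day 5. For comparison, the summed proximal tubule markers stood at 193% of Total at day 5.

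Ribosome-bound ferritin mRNA in PT was lower than ferritin mRNA in Total. Ribosome loading, mRNA level and the ferritin mRNA of other cells in Total cannot be told apart in this comparison. Fth1 differed by −1.29 ± 0.22 at day 5 (edgeR adjusted p = 7.54e-06), by −1.0004 ± 0.22 at day 10 (adjusted p = 0.000224) and by −1.62 ± 0.23 in contralateral kidneys (adjusted p = 1.70e-07). At day 10, where replicate numbers paired the libraries, the fit with the replicate number as a block gave −0.99 (adjusted p = 2.48e-06), short of 2-fold, and leaving out single libraries gave −1.13 to −0.67. At day 5 the value was −0.996 without the second female Total library. Ftl1 differed by −1.39 ± 0.26 at day 5 (edgeR adjusted p = 3.05e-05) and −1.44 ± 0.26 in contralateral kidneys (adjusted p = 2.26e-05), and by −0.75 ± 0.26 at day 10, short of 2-fold. Hmox1 and Slc11a2 lay the other way without reaching 2-fold, at 0.76 ± 0.20 and 0.55 ± 0.18 at day 5.

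The difference between the fractions' changes was fitted as an interaction, PT minus Total. It was called for 2 members higher and 2 lower on each day, where 4.27% of all genes were called at day 5, 3.02% higher and 1.24% lower, and 5.76% at day 10, 4.68% higher and 1.08% lower. Cp gave 2.39 ± 0.32 at day 5 and 2.19 ± 0.32 at day 10, and Steap4 was higher as well, with a fitted value that depends on the prior count. Lcn2 gave −2.88 ± 0.52 at day 5 and −1.65 ± 0.51 at day 10, all as description. The Lcn2 value at day 10 fell out of the calls in 4 alternative fits and in 18 of 42 fits without 1 library, where it ran from −1.90 to −1.44. Trf gave −2.45 ± 0.43 at day 5 (edgeR adjusted p = 0.000152) and −2.46 ± 0.43 at day 10 (adjusted p = 0.000109). The Trf values average over the sexes, whose contralateral PT levels lay apart. For Tfrc, Fth1, Ftl1, Hmox1, Slc11a2 and Slc40a1 no interaction was called on either day by edgeR, DESeq2 or limma-voom, with values between −0.31 and 0.70 and edgeR unadjusted p-values between 0.0527 and 0.896.

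**Figure D3:**
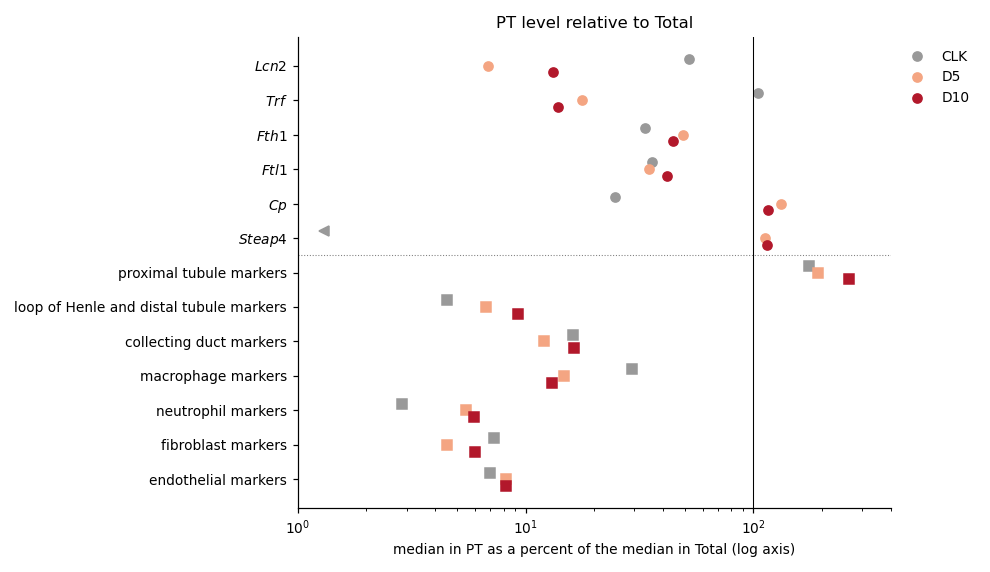
Median CPM in PT as a percent of the median in Total, on a log axis. Circles are Lcn2, Trf, Fth1, Ftl1, Cp and Steap4, and squares are the summed levels of marker lists. Colours mark contralateral, day 5 and day 10 kidneys, and the black line marks equal medians. The left-pointing triangle is Steap4, whose contralateral PT median is 0. Lcn2 and Trf move away from the line of equality in obstructed kidneys, and Cp and Steap4 move close to it.

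Females and males were compared within PT. In contralateral kidneys 1 member was called higher in females and 1 lower, beside 4.13% of all genes, 2% higher and 2.13% lower. Trf had 2.29, 2.90 and 3.46 CPM in the 3 female libraries, against 0.0573, 0.440, 0.526 and 0.844 CPM in the 4 male ones, which lay below every female library. The difference was 2.61 ± 0.55 (edgeR adjusted p = 0.00511). In contralateral Total, Trf had 1.81, 2.19 and 2.48 CPM in females, against 0.507, 0.575, 0.761 and 0.802 CPM in males, with no test run.

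Hmox1 ran opposite to Trf. Its lowest, median and highest levels were 41.3, 45.6 and 62.5 CPM in the 3 female contralateral PT libraries, against 74.5, 143 and 198 CPM over the 4 male ones. The difference of −1.48 ± 0.31 passed the test (edgeR adjusted p = 0.00541). With only the contralateral groups fitted, the adjusted p of Hmox1 was 0.0518. On log2(RPKM + 1) the Trf difference was 0.58, short of 2-fold.

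At day 5 no member was called between the sexes by edgeR, DESeq2 or limma-voom (0.851% of all genes called), and 1, Steap4, had an unadjusted p under 0.05. At day 10 edgeR and limma-voom called none (2.22% of all genes called by edgeR), DESeq2 called 1 among 521 genes, and Cp, Fth1 and Hmox1 had an unadjusted p under 0.05. Hmox1 at day 10 had 85.5, 112 and 121 CPM in females, against 153 to 286 CPM in males, without overlap. Its difference of −1.15 ± 0.31 had an edgeR adjusted p of 0.0529, and DESeq2 gave an adjusted p of 0.0154. The change with obstruction was also compared between the sexes. No member was called by edgeR, DESeq2 or limma-voom at day 5 (0.502% of all genes called) or day 10 (0.208%). Trf and Hmox1 had an unadjusted p under 0.05 at day 5, and Trf at day 10. Trf had the values farthest from 0, −2.06 ± 0.77 at day 5 (edgeR adjusted p = 0.378) and −1.89 ± 0.77 at day 10 (adjusted p = 0.619).

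Beyond the 10 members, 78 further iron genes in 8 lists stood in the table. At day 5 in PT, 12 of the 65 tested rose and 13 fell, with a median of −0.33, beside 18.2% of all genes higher and 12.4% lower. At day 10, 11 rose and 12 fell, with a median of −0.38, beside 19.7% and 12%. In Total 12 of 69 rose and 17 fell at day 5, with a median of −0.54, beside 19.2% of all genes higher and 13.3% lower. At day 10 in Total 12 rose and 21 fell, with a median of −0.58, beside 20.9% and 13.8%. The single lists had 5 to 15 genes tested in PT, so their counts are a description, to be read against these shares.

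Uptake and reduction had 4 of 8 genes higher and 1 lower in PT on both days, beside 18.2% of all genes higher and 12.4% lower at day 5. Cybrd1, a ferric reductase of the gut surface, had 0.613, 1.16 and 2.67 CPM (lowest, median, highest) in PT at day 5, against 0 to 0.253 CPM in contralateral PT, and rose by 4.24 ± 0.49 (edgeR adjusted p = 3.99e-07). At day 10 it rose by 4.90 ± 0.48 (edgeR adjusted p = 3.34e-08), and its change was larger in PT than in Total by 3.16 ± 0.65 at day 5 and 3.32 ± 0.65 at day 10 (adjusted p = 0.0013 and 0.000442). The contralateral PT libraries held only 5 Cybrd1 counts in females and 2 in males, so the size of these fitted values is uncertain. Tfr2, a receptor that senses transferrin, rose in PT at day 5 by 2.54 ± 0.45, and Slc11a1, a metal transporter of phagocytes, rose at day 10 by 3.19 ± 0.54. The 12 macrophage markers summed to 151 to 359.7 CPM in the same PT libraries of day 10, against 23.1 to 42.5 CPM in contralateral PT, and their part in the Slc11a1 value was not tested. Slc39a8, a zinc and iron importer, fell in PT by 1.61 ± 0.20 at day 5, with 4.16 to 7.44 CPM against 9.62 to 20.6 CPM in contralateral PT.

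Of the 5 tested genes for iron carriers (siderophores) and filtered iron uptake, 4 fell in PT on both days (12.4% of all genes lower at day 5). Lrp2 and Cubn were among them, which encode the endocytic receptors megalin and cubilin. Lrp2 fell by 1.95 ± 0.23 and Cubn by 1.69 ± 0.20 at day 5 in PT. Both also stand on the list of proximal tubule markers, of which 10 of 10 fell in the same contrast.

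Of the 8 tested genes of heme synthesis, 3 were called in PT on both days, each lower (12.4% of all genes at day 5). Cpox fell by 1.76 ± 0.25 and Fech, ferrochelatase, by 1.26 ± 0.14 at day 5. Of the 15 genes of mitochondrial iron and iron-sulfur clusters 3 were called at day 5 in PT, each lower, beside 12.4% of all genes lower and 30.6% called either way. Cisd1 fell by 1.397 ± 0.22, and Nfs1, the cysteine desulfurase, fell by 1.37 ± 0.21. In the same fit the median over all genes was 0.05.

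Heme uptake, breakdown and export had 2 of 9 genes higher and 2 lower in PT at day 5, beside 18.2% of all genes higher and 12.4% lower. Lrp1, a receptor of heme bound to hemopexin, rose by 1.92 ± 0.35, Abcb6 fell by 1.26 ± 0.32 and the heme carrier Slc46a1 by 1.23 ± 0.17. Hp, haptoglobin, had 46 counts over the PT libraries of day 5, against 3 over the contralateral ones, a ratio of 13.8 (95% counting interval 4.43 to 69.3). In Total Hp rose by 4.32 ± 0.44 at day 5 (edgeR adjusted p = 2.09e-08).

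Among the genes that control hepcidin, Bmp2, a ligand upstream of it, had 104 PT counts at day 5, against 3 in contralateral PT, a ratio of 31.2 (95% counting interval 10.4 to 154), and Bmp6 rose in PT by 1.202 ± 0.20 at day 5. In Total, Tmprss6, a protease that restrains hepcidin, rose by 3.92 ± 0.84 at day 5. The 6 tested genes of iron sensing and ferritin turnover had a median of −0.34 at day 5 in PT. Aco1, which encodes an iron regulatory protein, was the 1 of them that fell in Total at day 5, by 1.28 ± 0.18. In PT at day 5 the Aco1 difference was −0.97 ± 0.21 (edgeR adjusted p = 0.000517), short of 2-fold. Its change at day 5 was not called different between the fractions (edgeR adjusted p = 0.784). Ferroptosis genes had 4 of 9 higher at day 5 in PT (18.2% of all genes higher), Gch1 by 3.52 ± 0.44 and Chac1 by 2.17 ± 0.43. The Chac1 value averages over the sexes. In PT at day 5 Chac1 was lower in females than in males by 2.55 ± 0.56 (edgeR adjusted p = 0.0289). Its change with obstruction at day 5 was not called different between the sexes (edgeR adjusted p = 0.570). Slc7a11, the cystine carrier, rose in Total by 2.41 ± 0.48 at day 5.

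**Figure D4:**
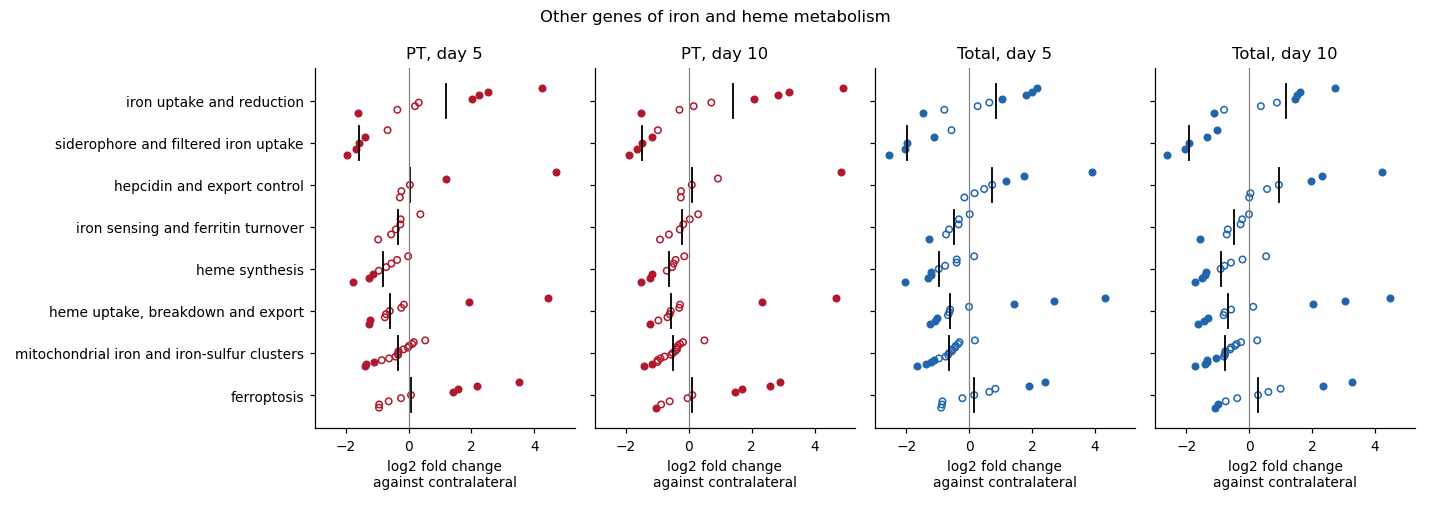
Log2 difference of each tested gene of the 8 further iron lists against contralateral kidneys, by list (filled, called; black line, median of the list). The list of siderophore and filtered iron uptake lies lowest, and the list of uptake and reduction has 4 of its 8 genes called higher in PT.

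Genes whose pattern over the 12 groups of sex, state and fraction was most like that of each leading member were sought among 12075 genes, by the root mean square difference of mean-centred log2 CPM, as a description. For Lcn2 they were Sprr2f (0.69), Arhgap36 (0.94) and Cxcl17 (0.95). Sprr2f had a median of 0.848 CPM in PT and 10.8 CPM in Total at day 5. For Cp they were Tmsb10 (0.27), Cmtm3 (0.28) and Sytl2 (0.33), and Tmsb10 had a median of 144 CPM in PT and 137 CPM in Total at day 5. For Steap4 they were Gem (0.24), Cpne8 (0.29) and Plekho1 (0.34), and Gem had a median of 14.4 CPM in PT at day 5, against 0.286 CPM in contralateral PT.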

How the data were processed

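RNA was sequenced from 42 libraries in 12 groups of sex, kidney state and fraction, mapped to groups by the submitters' labels. Per the submitters' processing notes, the authors used STAR 2.0.4b, Subread and featureCounts 1.4.5; the genome build, annotation and strand setting are not given in the sources used here. The authors deposited raw counts per gene symbol and RPKM, which divide the deposited counts by library total and gene length (the implied gene lengths matched across libraries, with a largest relative deviation of 0.00043). Depth was 9.31 to 43.6 M counts.

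Counts were fitted in R 4.3.3 with edgeR 4.0.16: filterByExpr, TMM factors, a robust quasi-likelihood fit with 1 mean per group, the sexes at equal weight, and Benjamini-Hochberg adjustment over all genes tested. PT and Total were fitted apart for kidney states and together across fractions. Standard errors are the log2 difference over the root of the F statistic, an approximation. Where a group held 1 to 3 counts in all, a ratio with a 95% exact binomial interval is printed. The script was tested on simulated counts. Alternatives were other scalings, filters and thresholds, DESeq2 1.42.0, limma 3.58.1 (voom, and log2(RPKM + 1) with a minimum mean of 0.5), only the groups compared, replicate blocks and each library left out. The Lars2 settings were added after the data were seen.

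Replicate numbers paired the libraries where all 7 same-numbered deviations correlated above 0.1, which held for day 10 against contralateral in Total (0.15 to 0.36), PT against Total in contralateral kidneys (0.29 to 0.44) and at day 10 (0.19 to 0.68). The members, the other lists and the rule for named genes (all members, up to 2 called genes each way per list, and the 3 most alike patterns of Lcn2, Cp and Steap4) were chosen with earlier results of these data known. The genes named from the lists were taken from those the rule gives.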

Additional observations from a re-analysis of the deposited data

Results flagged for a closer look

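For Lcn2, Cp, Steap4 and Trf, the change from contralateral kidneys differed between the fractions. This was called in 8 of 20 interactions of members and day, PT minus Total, beside 4.27% of all genes at day 5 and 5.76% at day 10. For Lcn2, Cp and Steap4, whose contrasts chose the list, the values are a description with no test. At day 5 the values were −2.88 for Lcn2, 2.39 for Cp, 5.74 for Steap4 and −2.45 for Trf. At day 10 they were −1.65 for Lcn2, 2.19 for Cp, 5.76 for Steap4 and −2.46 for Trf. The Steap4 values are fitted against a single contralateral PT count and depend on the prior count.

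In 2 of 59 member groups of 4 male libraries, 1 library stood far from the other 3, where chance alone gives about 1 in 20. Among the male Total libraries of day 10, Cp reached 462 CPM in replicate 1, with 260 to 282 CPM in the other 3. Slc40a1 reached 179 CPM in replicate 3 of the same group, with 80.5 to 91.3 CPM in the other 3.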

How the results depend on the processing

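No called member value changed sign under any alternative run. Over settings other than leaving libraries out, 1851 member values kept their sign and their side of the threshold, 25 lost a call, 32 gained one and 110 uncalled values changed sign. The counts of genes called moved by more than 1.5 times, or those of members changed, as follows.

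DESeq2 called 521 genes between the sexes at day 10 (1 member) and 241 at day 5, 192 between the days in PT and 161 in Total, and 100 (day 10) and 191 (day 5) for sex against obstruction. A filter of 5 CPM in 3 libraries gave 2722 (day 5), 2689 (day 10) and 31 (between days) in PT, 3429, 3603 and 40 in Total, 2385 (contralateral), 2605 (day 5) and 2888 (day 10) for PT against Total, and 1 member between the sexes in contralateral kidneys. limma on log2(RPKM + 1) gave 2113, 2053 and 27 in PT, 2650, 2886 and 28 in Total, 1081, 1839 and 2026 for PT against Total, and 308 between the sexes in contralateral kidneys (1 member). With no minimum fold there were 7992 and 8193 (8 members) in PT, 9859, 10128 and 104 in Total, and 7960, 9162 and 10090 (6 members) for PT against Total. With only the groups compared, the sexes gave 403 in contralateral kidneys (1 member), 265 at day 5 and 98 at day 10, the days in PT 107, and sex against obstruction at day 10 13. No filter gave 1 member between the sexes at day 10. Library size only gave 40 for sex against obstruction at day 5, and it moved the share of higher calls to 83.2% at day 5 and 82.9% at day 10 in PT and to 80.4% and 76.0% in Total, against 59.6%, 62.2%, 59.0% and 60.3% with TMM.

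Settings on Lars2 were chosen after seeing the data. The low side holds 1 female and 1 male contralateral library and 1 female library of day 10, and the high side 1 female library of day 5. A lone library is there assumed to vary like the other groups, and calls lost on a side say nothing about Lars2. With Lars2 as a covariate, 182 genes were called between the days, 199 between the sexes at day 5 (1 member at day 10), and 162 (day 5) and 67 (day 10) for sex against obstruction. High Lars2 alone gave 1 between the days (0 members), 17 (day 5) and 577 (day 10, 1 member) between the sexes, and 8 and 51 for sex against obstruction. Low Lars2 alone gave 231 between the days (0 members), 383 (contralateral, 0 members) and 199 (day 10) between the sexes, and 113 for sex against obstruction at day 5.

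With each library left out in turn, the counts ran from 4411 to 4732 (day 5), 4591 to 4903 (day 10, 5 to 6 members) and 23 to 93 (between days, 0 to 1 member) in PT, where the Lcn2 call was lost without the first female PT library of day 5. In Total they ran from 5350 to 5605, 5602 to 6078 (7 to 8 members) and 17 to 95. For PT against Total they were 3989 to 4262 in contralateral kidneys (4 to 5 members), 4700 to 5161 at day 5 (3 to 5) and 4935 to 5775 at day 10 (2 to 3), and for the interactions 667 to 826 at day 5 and 820 to 1113 at day 10 (3 to 4). The sexes gave 466 to 698 in contralateral kidneys, 56 to 135 at day 5 and 149 to 465 at day 10 (0 to 2 members), and sex against obstruction 22 to 91 at day 5 and 15 to 39 at day 10. The causes were not tested.

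The replicate block changed 1 member call, Fth1 in PT against Total at day 10, where it gave −0.99. With the block, PT gave 4583 genes at day 5, 4759 at day 10 and 70 between days, Total 5482, 5839 and 89, PT against Total 4155, 4856 and 5231, and the interactions 878 and 1164. Outside the 3 paired comparisons the numbers are shared labels only, and there not every library correlated best with its own number. Depth limits Steap4 in contralateral PT, where 1 count was seen.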
